A study of Mus musculus with 24 samples.

Results

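The mRNA of medial frontal cortex was compared between male mice carrying a Dnmt3l knock-in (OE-M) and male controls (CON-M). All genes with at least 0.5 FPKM (fragments per kilobase of transcript scaled to library size) in at least 3 of the 6 male libraries were taken, which gave 15153 of the 36096 genes in the mRNA table. The series has 24 samples in all, of which 12 are longer-RNA libraries, and the 6 male ones among these were fitted. The OE-M group, of genotype Dnmt3l;Emx1-cre, came from a cross of conditional Dnmt3l knock-in and Emx1-cre parents, and the CON-M group carried Emx1-cre alone, so both groups hold the Cre transgene. All 6 samples were male, on the C57BL/6J background, and were taken at postnatal day 28, with 3 samples a group. Emx1 drives Cre in the progenitors of the dorsal forebrain, from which cortical excitatory neurons, cortical astrocytes and some oligodendrocytes arise, whereas microglia, vessels and most interneurons have other origins. The labels number the samples but do not state that each is a separate animal. The p-values therefore cover only the variation among these libraries, some of which may be technical.

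Dnmt3l encodes a relative of the DNA methyltransferases that has no catalytic activity of its own. It binds DNMT3A and DNMT3B, stimulates them, and reads the tail of histone H3 where lysine 4 is unmethylated. It is known for its role in setting methylation imprints in germ cells and is normally silent in the adult brain. DNMT3A is the main de novo methyltransferase of postnatal neurons.

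Total expected counts were 28444842 to 32100277 in CON-M and 23454236 to 26842726 in OE-M. The correlation of log2 levels across genes was 0.983 to 0.989 between libraries of 1 group and 0.963 to 0.968 between groups. Mitochondrially encoded transcripts took 2.63% to 3.44% of the counts in CON-M and 5.57% to 7.30% in OE-M. CON-M replicate 3 held transcripts of liver, where the summed level of a list of liver genes without Ttr was 177 CPM (TMM-scaled counts relative to library size, on the usual CPM scale), against 26.1 to 49.5 CPM in the other 5 libraries. OE-F replicate 1, used only where females are set beside males, lay close to the female controls for many lists, such as astrocyte markers (median deviation 0.01) and proteasome subunits (-0.06), and away from them for others, such as red blood cell genes (-1.58) and striatal markers (-1.34). The excitatory markers Slc17a7 (958 to 1615 CPM) and Camk2a (2891 to 4893 CPM) were abundant in all 6 libraries.

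Dnmt3l RNA (ENSMUSG00000000730, chromosome 10, 78041947 to 78063622 in GRCm38) was nearly absent from the controls and present in every knock-in library. The controls had 1, 1 and 0 counts, and the knock-in libraries had 603, 609 and 521. The level was 26.8, 24.8 and 20.5 CPM in OE-M, a mean of 24.01 ± 3.24 CPM (SD, n = 3), against 0.0222 CPM in CON-M. The ratio of OE-M to CON-M was 1114, with a 95% interval of 308 to 9210 that covers counting error only. The fitted log2 change was 9.85 ± 0.29 (SE, edgeR quasi-likelihood test, adjusted p = 8.65e-09). An exact two-sided permutation test over the 6 libraries gave p = 0.1, which is the lowest value possible with 3 libraries in each group.

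Of the 15153 genes, 8710 (57.5%) differed between the groups at an adjusted p below 0.05 by edgeR. Among them 4197 (27.7% of the genes tested) were higher and 4513 (29.8%) lower in OE-M, and 431 and 437 of these differed by 2-fold or more. The median log2 change of all genes was 0.0068 and the median size of a change 0.39. All 3 OE-M values lay above all 3 CON-M values for 4685 genes and below them for 4967. With any single library left out, 6883 of the genes kept their call and direction. Without CON-M replicate 3, the library with liver transcripts, 7719 genes were called. The split by direction moved with the scaling. With total counts and no TMM, 2942 genes were higher and 5704 lower, so that 34.0% of the calls were higher instead of 48.2%, and the median of all genes moved to -0.132. With limma on log2(FPKM + 0.1) the counts were 2314 and 4368 (34.6% higher). Counts and medians of gene lists are to be read against these shares and this median. In these bulk samples, fewer cells of a type and less RNA per cell cannot be told apart.

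**Figure D1:**
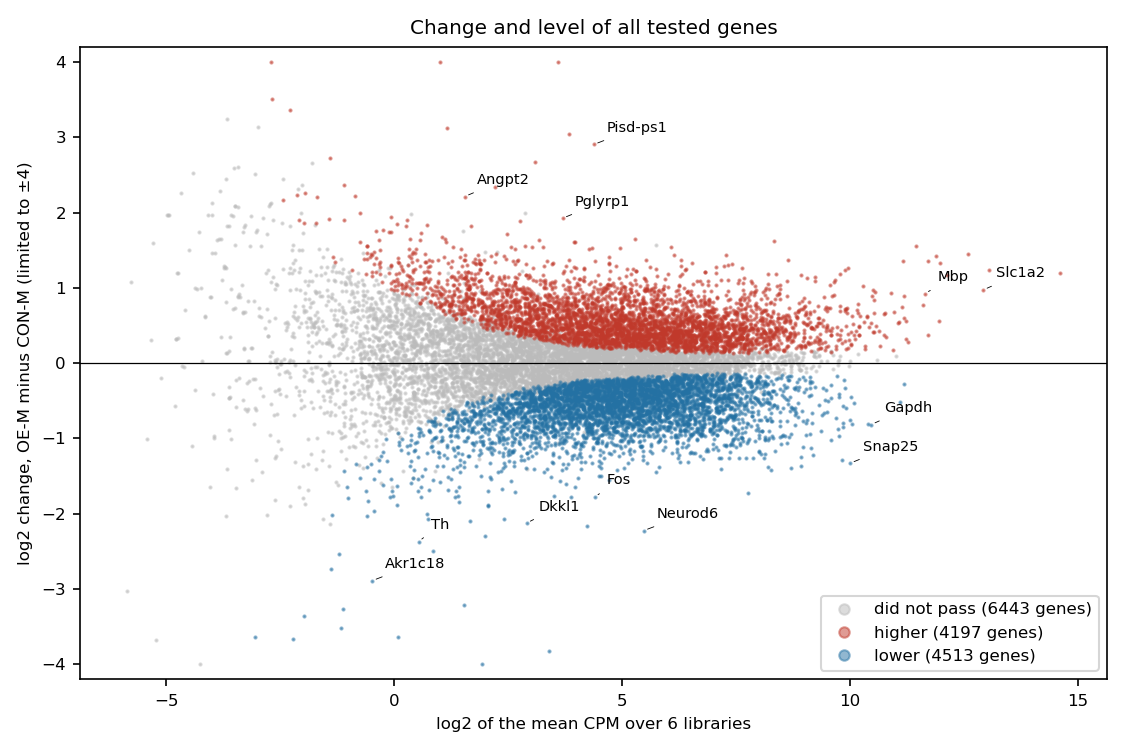
Log2 change of OE-M against CON-M (vertical axis, limited to ±4) against the log2 of the mean CPM over the 6 male libraries (horizontal axis), one point per tested gene. The 4197 higher genes (red) and the 4513 lower genes (blue) lie on both sides of 0 over the whole range of levels. Abundant genes lie on both sides too, with Slc1a2 and Mbp higher and Gapdh and Snap25 lower.

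The largest rises after Dnmt3l were of genes at low to modest levels. Pisd-ps1, a copy of the phosphatidylserine decarboxylase gene Pisd (chromosome 11, 3125904 to 3131004), was at 4.78, 5.01 and 4.83 CPM in CON-M and at 55.6, 22.9 and 31.4 CPM in OE-M. Its log2 change was 2.91 ± 0.27 (SE, edgeR adjusted p = 3.97e-06), while Pisd itself, at 50.8 to 61.8 CPM in all 6 libraries, did not pass. The sequences are related, so how reads were shared between the 2 genes is uncertain. Angpt2, an angiopoietin that acts on the endothelial receptor TIE2 (chromosome 8, 18690263 to 18741562), was at 0.826, 0.841 and 1.41 CPM in CON-M and at 5.60, 3.58 and 5.23 CPM in OE-M (log2 change 2.21 ± 0.29, edgeR adjusted p = 4.87e-05). Every OE-M library was above every control for both genes, which the rule that chose the largest changes required. Pglyrp1, a peptidoglycan recognition protein of innate immunity, was at 4.64 to 6.60 CPM in CON-M and 19.1 to 21.5 CPM in OE-M (log2 change 1.92 ± 0.14). Depp1, a target of FOXO factors, rose by 1.89 ± 0.34 on the log2 scale, with OE-M replicate 3 at 4.87 CPM well below the 12.2 and 14.8 CPM of the other two. Col7a1, a collagen chain of anchoring fibrils, rose by 1.71 ± 0.19. Acr, the protease of the sperm acrosome, Degs2, a sphingolipid desaturase, and Trpv6, a calcium channel, rose by 1.83, 1.82 and 1.72 on the log2 scale, each to between 1.91 and 5.85 CPM. Ftl2-ps, a copy of ferritin light chain, rose by 1.94 ± 0.47 and shares sequence with its parent gene.

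The largest falls were of genes of several functions, with Neurod6 the most abundant of them. Neurod6, a transcription factor of cortical projection neurons (chromosome 6, 55677822 to 55681263), was at 83.7, 63.5 and 71.7 CPM in CON-M and at 20.5, 16.3 and 10.02 CPM in OE-M. The groups were far apart and the log2 change was -2.23 ± 0.19 (SE, edgeR adjusted p = 2.71e-06). Dkkl1, a secreted relative of the Dickkopf proteins (chromosome 7, 45207519 to 45212147), was at 13.9, 9.32 and 13.3 CPM in CON-M and at 2.53, 3.09 and 2.71 CPM in OE-M, a log2 change of -2.13 ± 0.18. Th, tyrosine hydroxylase of the catecholamine pathway, fell by 2.37 ± 0.54, from 1.41, 4.43 and 1.44 CPM to 0.267, 0.366 and 0.746 CPM. Akr1c18, which inactivates progesterone, and Serpinb1a, an inhibitor of neutrophil proteases, were also lower, Akr1c18 at a log2 change of -2.89, and both were below 1 CPM in each OE-M library. Lct (lactase) and Dsp (desmoplakin) fell by 2.30 and 2.07, and Dsp is on the list of markers of thalamus and hippocampus. Znrd2, Tbata and Iyd, an iodotyrosine deiodinase, fell by 2.10, 2.08 and 2.03.

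Among the most abundant mRNAs, glial, myelin, motor and scaffold genes were higher and housekeeping and vesicle genes lower. Slc1a2, the main glutamate transporter of astrocytes, was at 5397, 4888 and 5400 CPM in CON-M and at 10110, 10610 and 10050 CPM in OE-M (log2 change 0.97 ± 0.06 SE, edgeR adjusted p = 3.82e-07). Mbp, a myelin gene, rose by 0.92 ± 0.15, with wider spread among the controls (1681 to 2667 CPM). Kif5a, a kinesin of neurons, the synaptic scaffold Shank1 and the spectrin Sptbn1 rose by 0.77, 0.89 and 0.60. Snap25, a SNARE protein of the presynaptic terminal, was at 1582, 1401 and 1412 CPM in CON-M and at 563, 592 and 591 CPM in OE-M (log2 change -1.33 ± 0.06, edgeR adjusted p = 1.39e-07). Gapdh (glycolysis), Actb (cytoskeletal actin), Hspa8 (a constitutive chaperone) and Ndrg4 fell by 0.82, 0.76, 0.81 and 0.80, and Vamp2, a further SNARE protein, by 0.60. The rule that named these 11 genes required the 3 OE-M values to lie on one side of the 3 controls.

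**Figure D2:**
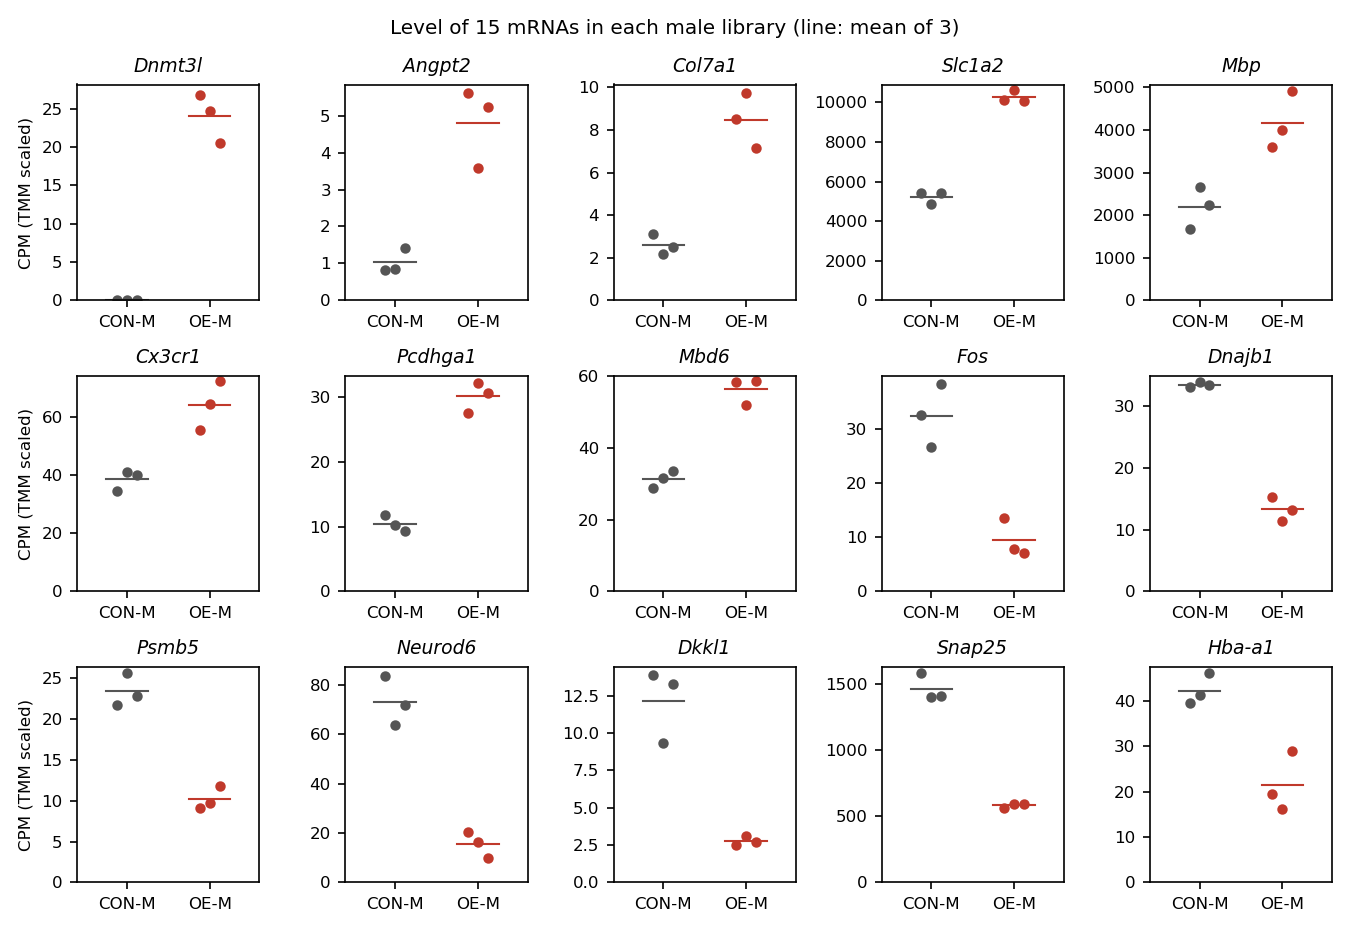
CPM of 15 mRNAs in each of the 3 CON-M (grey) and 3 OE-M (red) libraries, with a line at the mean of each group and every vertical axis starting at 0. The groups do not overlap in any panel, for example 27.5 to 32.2 CPM against 9.28 to 11.8 CPM for Pcdhga1. For some of these genes the rule that named them required this.

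Apart from Dnmt3l, genes of the DNA methylation machinery were lower more often than higher. Of 31 tested genes of that list, with Dnmt3l, 5 were higher and 12 lower (2 and 16 with total counts), with a median log2 change of -0.06. Dnmt3a, the de novo methyltransferase, was at 185, 187 and 202 CPM in CON-M and at 264, 231 and 219 CPM in OE-M (log2 change 0.31 ± 0.07 SE, edgeR adjusted p = 0.00318). Dnmt1, the maintenance methyltransferase, was at 58.0 to 61.5 CPM in CON-M and 55.1 to 61.5 CPM in OE-M and did not pass, and Dnmt3b was below the minimum level. The dioxygenases Tet1, Tet2 and Tet3 had log2 changes of -0.02, 0.15 and 0.12 and did not pass. Mbd6, of the methyl-CpG binding domain family, had the highest fold among the other members, from 28.8, 31.7 and 33.5 CPM to 58.2, 52.0 and 58.7 CPM (log2 change 0.85 ± 0.08). Zbtb33, a methyl-CpG reader of the zinc finger type, and Trim28, a corepressor of zinc finger proteins, fell by 0.51 and 0.41. Gadd45b, an activity-induced gene linked to demethylation, was at 8.91, 5.60 and 7.80 CPM in CON-M and at 2.58, 2.24 and 3.42 CPM in OE-M, a log2 change of -1.43 ± 0.22.

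Genes tied to DNA methylation by function or position went both ways, as did the tested genes as a whole (27.7% higher and 29.8% lower). Among 22 methyltransferases and demethylases of histone H3 lysines 4 and 36, 5 were higher and 7 lower, or 22.7% and 31.8%, near the shares of all genes. Their median was -0.04, a sign that flipped with other scalings, and the counts were 3 and 11 with total counts. Kmt2b and Kmt2d, methyltransferases of lysine 4, rose by 0.58 and 0.31, and Kdm1a, a demethylase of lysine 4, fell by 0.42. Of 39 tested imprinted genes 10 were higher and 16 lower, with a median of -0.18. Nap1l5, Impact, Ndn and Snrpn fell by 1.11, 0.93, 0.84 and 0.83, and Atp10a (a lipid flippase) and Igf2r (a receptor that clears IGF2) rose by 1.29 and 0.56. Snrpn was at 558, 579 and 572 CPM in CON-M and at 323, 318 and 322 CPM in OE-M. Only 6 of 26 germline genes known for silencing by promoter methylation passed the minimum level. Of these, Sycp2, of the synaptonemal complex, rose, with 1.07 to 1.24 CPM in CON-M and 2.07 to 2.67 CPM in OE-M, while Brdt fell by 0.46 and Tdrkh by 0.36. Of 15 tested neighbours of Dnmt3l on chromosome 10, 4 were higher and 8 lower (median -0.15), with Agpat3 up by 0.47 and Rrp1 down by 0.67.

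The clustered protocadherins were higher in OE-M almost throughout. These cell adhesion genes, of the alpha, beta and gamma clusters, give each neuron its own surface code and are known to be set by promoter methylation. Of 57 tested genes 55 were higher and 0 lower, with a median log2 change of 0.68 and a range of -0.08 to 1.53. The 2 that did not pass were Pcdhga11 at 0.10 and Pcdhga12 at -0.08. Pcdhga1 was at 11.8, 10.3 and 9.28 CPM in CON-M and at 27.5, 32.2 and 30.7 CPM in OE-M (log2 change 1.53 ± 0.11 SE, edgeR adjusted p = 6.6e-07). Pcdhgc3, of the constitutive C type, was at 136, 130 and 141 CPM in CON-M and at 283, 261 and 250 CPM in OE-M (0.97 ± 0.06). Pcdhgc5, also of the C type, rose by 0.46. The alpha and gamma genes share their last exons within a cluster, so how the authors' counting divided reads among them is uncertain, and the members are not independent of each other.

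Receptors for glutamate rose almost throughout the list. Of 24 tested subunits 22 were higher and 0 lower (median log2 change 0.49). Grin1, the obligatory NMDA receptor subunit, was at 715, 703 and 765 CPM in CON-M and at 1166, 1229 and 1136 CPM in OE-M (log2 change 0.69 ± 0.06 SE, edgeR adjusted p = 2.17e-06). Grin2c, an NMDA subunit also made by astrocytes, rose by 1.02 ± 0.08, and the more abundant Grin2a and Grin2b by 0.26 and 0.28. Gria1, a main AMPA subunit, had a log2 change of 0.14 and did not pass. Of 16 GABA receptor genes 12 were higher and 1 lower (median 0.31, 7 and 1 with total counts), with 9 higher without CON-M replicate 3. Gabbr2 and Gabbr1, the pair that forms the GABA-B receptor, rose by 0.76 and 0.49, and Gabra5, of extrasynaptic receptors, fell by 0.37.

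Ion channel genes were also higher more often than lower, and accessory beta subunits stood among the lower ones. Of 69 potassium channel genes 34 were higher and 5 lower (median 0.24, 24 and 10 with total counts), and of 34 sodium and voltage-gated calcium channel genes 22 were higher and 4 lower (median 0.38). The P/Q-type pore Cacna1a was at 344, 353 and 379 CPM in CON-M and at 670, 664 and 625 CPM in OE-M (log2 change 0.86 ± 0.06 SE). Cacna1i, Cacna1b and Cacna1c rose by 0.77, 0.66 and 0.56. The cytoplasmic beta subunits Cacnb4, Cacnb1 and Cacnb2 fell by 1.03, 0.67 and 0.61, while Cacnb3 rose by 0.25, a call lost without OE-M replicate 2 (edgeR adjusted p = 0.0801). The other lower gene was Scnn1a, an epithelial sodium channel, at -1.05. Among potassium channels the pores Kcnt1, Kcnh3 and Kcnj16 rose by 0.80, 0.70 and 0.92, and the cytoplasmic beta subunits Kcnab1, Kcnab3 and Kcnab2 fell by 0.94, 0.61 and 0.33. The other 2 lower genes were the pore Kcnu1 and the modulatory subunit Kcng1, at -0.997 and -0.416. The grouping by subunit was chosen after the values were seen.

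Genes of the postsynaptic side were mostly higher, and those of the presynaptic side went both ways. Among 40 postsynaptic scaffolds and adhesion genes 26 were higher and 9 lower (median 0.27, 20 and 12 with total counts). The scaffolds Shank3 and Dlgap3 rose by 0.72 and 0.65 and the neurexins Nrxn2 and Nrxn3 by 0.69 and 0.58, while Dlg3 and the kinase subunit Camk2b fell by 0.71 and 0.49. Among 41 presynaptic release genes 17 were higher and 18 lower (12 and 19 with total counts), with a median of 0.08 whose sign flipped with other scalings. Snap25, described above, had the lowest value. Nsf, the ATPase that recycles SNARE complexes, was at 834, 802 and 808 CPM in CON-M and at 343, 340 and 363 CPM in OE-M (log2 change -1.23 ± 0.06 SE). Napb, its adaptor, and Rab3a, a GTPase of vesicles, each fell by 1.26, and Syn2 by 0.90. The large scaffolds of the active zone rose, Bsn by 0.66 and Rims1 by 0.58, as did Syn3 by 0.79 and the vesicular glutamate transporter Slc17a7 by 0.55.

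**Figure D3:**
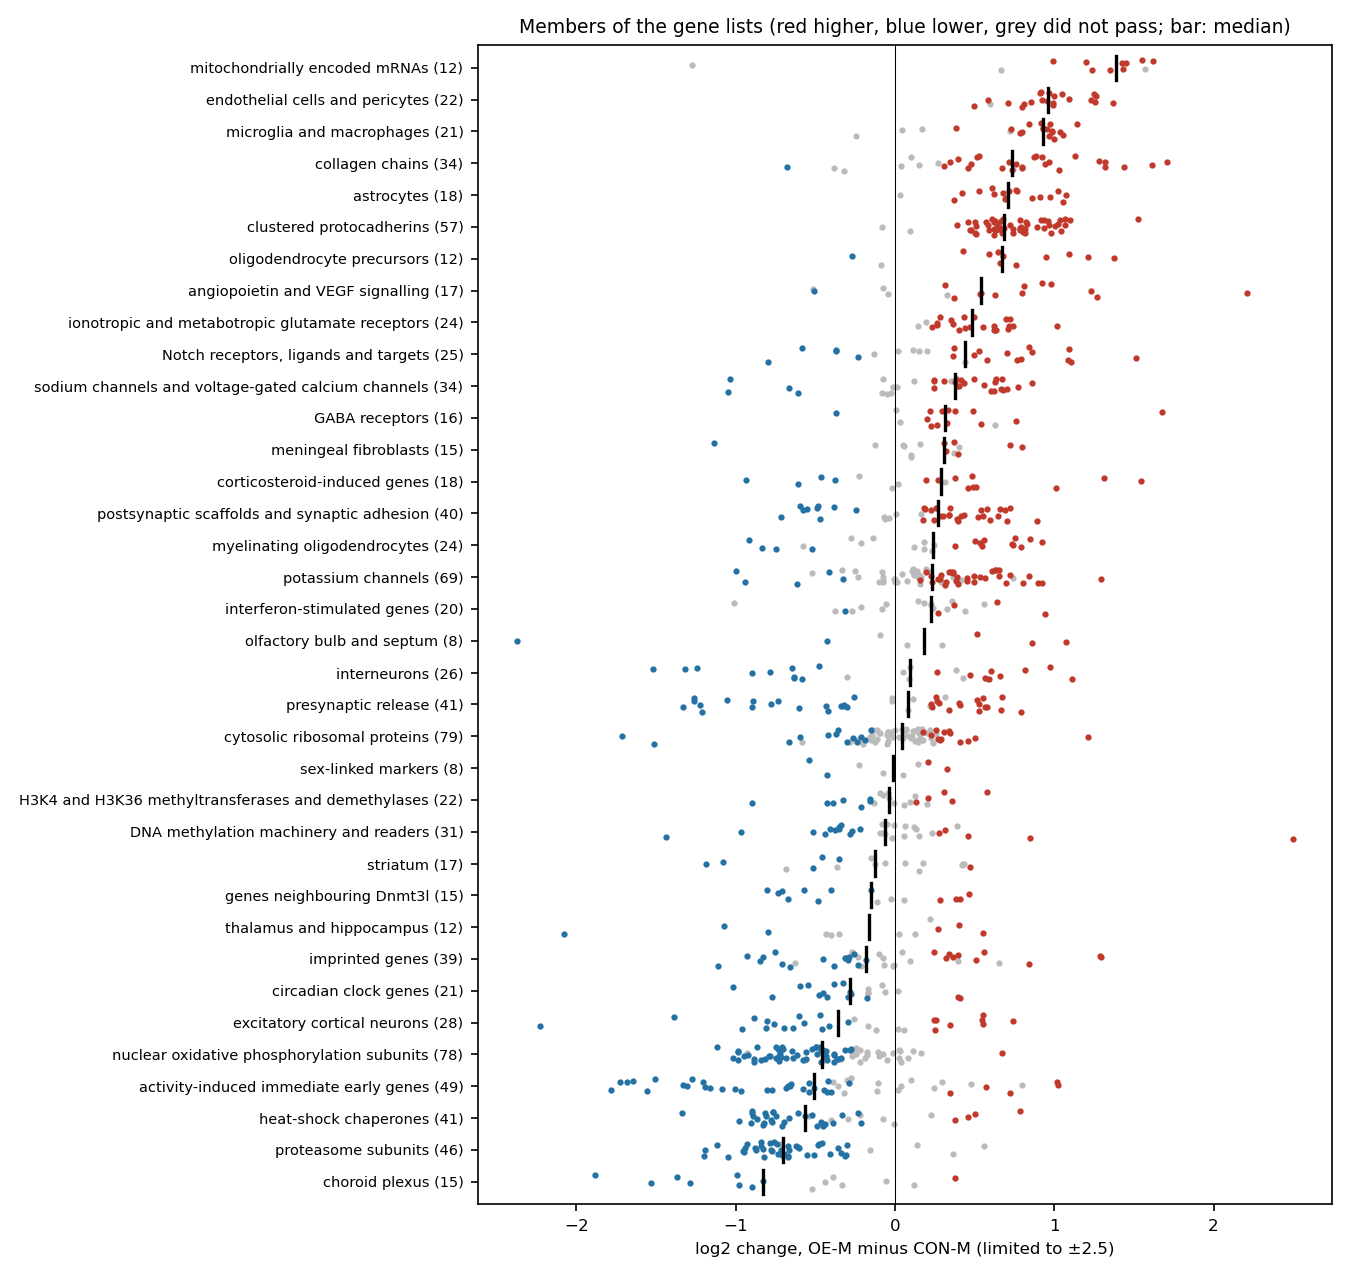
Log2 change of each tested member (points, horizontal axis limited to ±2.5, red higher, blue lower, grey did not pass) in the gene lists with at least 8 tested members, with the number tested in brackets and a bar at the median. The lists run from choroid plexus at -0.83 to mitochondrially encoded mRNAs at 1.39, against a median of 0.0068 for all genes.

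Activity-induced immediate early genes were mostly lower. Many genes of this list, though not all, are transcribed within minutes of neuronal firing. Serum response elements and cyclic AMP response elements that bind CREB act in many of them. Of 49 tested genes 30 were lower and 5 higher, with a median log2 change of -0.50. Promoters of 2 of them are shown because both genes fell and both hold the core of the CREB motif, TGACGT, which is in capitals on either strand (ACGTCA on the reverse). They are the 250 bases before the start in RefSeq, build GRCm38.p6, chr12:85473640-85473889 on the plus strand for Fos and chr6:85513590-85513839 on the minus strand for Egr4. The core occurs in 7.515% of all 32841 promoter windows in the RefSeq table. Counted by gene, it is in the promoters of 12.7% of the 11167 tested genes with one. Among the 38 listed genes with a promoter, 11 of the 20 with the core were lower, as were 12 of the 18 without it, and with a promoter matched for only 77.6% of the list, under 80%, that comparison is void.
Fos: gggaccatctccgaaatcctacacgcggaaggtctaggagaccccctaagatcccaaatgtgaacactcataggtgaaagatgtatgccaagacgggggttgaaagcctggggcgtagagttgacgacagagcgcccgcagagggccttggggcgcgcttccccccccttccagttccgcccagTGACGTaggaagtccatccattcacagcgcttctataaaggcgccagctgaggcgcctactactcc
Egr4: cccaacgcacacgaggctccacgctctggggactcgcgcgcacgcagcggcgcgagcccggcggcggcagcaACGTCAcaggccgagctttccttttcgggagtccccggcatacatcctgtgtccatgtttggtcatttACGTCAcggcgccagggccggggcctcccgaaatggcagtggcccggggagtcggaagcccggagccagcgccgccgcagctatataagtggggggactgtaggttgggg
Fos, a subunit of AP-1, was at 32.5, 26.6 and 38.3 CPM in CON-M and at 13.6, 7.77 and 7.15 CPM in OE-M (log2 change -1.78 ± 0.21 SE, edgeR adjusted p = 2.12e-05). Egr4, a zinc finger transcription factor, was at 33.9, 29.3 and 36.2 CPM in CON-M and at 13.2, 11.6 and 10.4 CPM in OE-M (-1.50 ± 0.11). Egr1 was at 374, 263 and 366 CPM against 126, 106 and 72.0 CPM (-1.72 ± 0.18). The groups did not overlap for these 3 genes, and OE-M replicate 3 was the lowest library in each.

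Not every gene of this list followed. The AP-1 members Fosb, Junb and Jun fell by 1.64, 1.56 and 0.66, and the nuclear receptor Nr4a3 by 1.33. Dusp14, of the phosphatases that act on MAP kinases, fell by 1.30, and Rgs2, which damps G protein signals, by 1.16. Arc, a regulator of AMPA receptor trafficking, was at 322, 232 and 339 CPM in CON-M and at 319, 256 and 108 CPM in OE-M and did not pass. Npas4 and Bdnf, with log2 changes of -0.30 and -0.10, did not pass either. The 5 that rose encode secreted proteins or their processing enzyme. Vgf, a neuropeptide precursor, was at 159, 156 and 158 CPM in CON-M and at 344, 326 and 291 CPM in OE-M (1.02 ± 0.07). Nptx2, a pentraxin that clusters AMPA receptors, rose by 1.02, Scg2, a granin, by 0.73, Pcsk1, a prohormone convertase, by 0.35 and Ccn1, a matrix protein, by 0.57, a call lost without CON-M replicate 2 (edgeR adjusted p = 0.121).

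Heat-shock chaperones were mostly lower. Of 41 genes 30 were lower and 4 higher (median log2 change -0.56). The heat-shock element that HSF1 binds, searched on both strands as GAA, any 2 bases, TTC, any 2 bases and GAA, was found in the promoters of 5 of the 33 heat-shock genes with a RefSeq promoter (15.2%) and of 67 of the 11167 tested genes with one, and in 0.603% of all single windows. All 5, Chordc1, Dnajb6, Hspd1, Hspe1 and Hsph1, fell, as did 20 of the 28 without a match. Promoters of 2 of them are shown, with the element in capitals, as the 250 bases before the start at chr5:29735648-29735897 for Dnajb6 and chr1:55087898-55088147 for Hspe1, both on the plus strand of GRCm38.p6. Hspd1 lies back to back with Hspe1, and one of its RefSeq windows overlaps this stretch, in which the element matches on each strand with overlap.
Dnajb6: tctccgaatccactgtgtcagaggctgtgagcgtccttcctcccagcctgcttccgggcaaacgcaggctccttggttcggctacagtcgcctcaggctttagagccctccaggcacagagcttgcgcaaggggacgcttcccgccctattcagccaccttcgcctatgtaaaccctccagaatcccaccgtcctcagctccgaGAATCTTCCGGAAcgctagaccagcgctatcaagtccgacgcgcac
Hspe1: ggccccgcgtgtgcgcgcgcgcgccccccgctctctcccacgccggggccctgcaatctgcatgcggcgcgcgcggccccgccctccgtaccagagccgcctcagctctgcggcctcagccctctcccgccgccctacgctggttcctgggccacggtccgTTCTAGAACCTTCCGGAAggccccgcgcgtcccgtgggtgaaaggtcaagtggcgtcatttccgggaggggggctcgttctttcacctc
Dnajb6 was at 107, 95.4 and 102 CPM in CON-M and at 52.0, 64.9 and 54.6 CPM in OE-M (log2 change -0.83 ± 0.08 SE, edgeR adjusted p = 7.47e-06). Hspe1, the mitochondrial co-chaperonin, was at 21.7, 20.0 and 19.3 CPM against 16.1, 16.6 and 15.7 CPM (-0.33 ± 0.09). Neither gene had an OE-M value within the range of its controls.

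Among the other chaperones Dnajb1, a partner of HSP70, had the lowest value, from 33.0, 33.8 and 33.4 CPM to 15.3, 11.4 and 13.1 CPM (log2 change -1.33 ± 0.10 SE). Hsp90aa1 and Hspa4l fell by 0.77 and 0.89, and the chaperonin genes Tcp1, Cct2, Cct3, Cct4, Cct5, Cct7 and Cct8 by 0.49 to 0.87. The stress-inducible Hspa1a and Hspa1b, near-identical copies at 3.73 to 9.61 CPM whose reads may be divided between them, did not pass. The 4 that rose were Hspa5 and Hsp90b1, chaperones of the endoplasmic reticulum, by 0.50 and 0.79, Hspa13 by 0.38, and Hsf1. Hsf1, the heat-shock transcription factor, rose by 0.46 ± 0.08, from 39.8, 40.6 and 44.5 CPM to 62.3, 54.6 and 54.8 CPM.

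Proteasome subunits were lower nearly throughout. Of 46 tested genes 41 were lower and 0 higher, with a median log2 change of -0.70. Psmb5, the chymotrypsin-like subunit, was at 21.8, 25.6 and 22.8 CPM in CON-M and at 9.07, 9.76 and 11.8 CPM in OE-M (log2 change -1.19 ± 0.12 SE, edgeR adjusted p = 5.46e-06). Psmc3 and Psmc6, ATPases of the regulatory particle, fell by 0.77 and 0.84, and Psmd5 and Psmd12 by 0.95 and 0.84. The interferon-inducible subunits Psmb8 and Psmb9, at under 2 CPM, had values of 0.56 and 0.36 and did not pass, and Psmb10, the third of them, fell by 0.48, a call lost without CON-M replicate 3 (edgeR adjusted p = 0.0934). The antioxidant response element that NRF2 binds, searched as TGACNNNGC on both strands, was in the promoters of 6 of 39 proteasome genes (15.4%) and of 16.5% of the 11167 tested genes with a promoter, and in 12.4% of all single windows.

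Transcripts of the respiratory chain divided by the genome that encodes them. Of 12 mitochondrially encoded mRNAs 9 were higher and 0 lower (median 1.39), and of 78 nuclear subunits 1 was higher and 51 lower (median -0.46). mt-Co1, the core of complex IV, was at 17040, 13630 and 14760 CPM in CON-M and at 29770, 37060 and 37640 CPM in OE-M (log2 change 1.20 ± 0.10 SE, edgeR adjusted p = 2.08e-06). mt-Cytb, of complex III, rose by 1.45, and mt-Nd1 and mt-Nd2, of complex I, by 1.55 and 1.35. The values of mt-Co2 (0 to 10.6 CPM) and mt-Co3 (0.227 to 153 CPM) were low and erratic beside those of their neighbours and did not pass. Among nuclear subunits Cycs (cytochrome c) fell by 0.98, Uqcrc2 by 0.88 and the ATP synthase genes Atp5pb and Atp5d by 0.84 and 0.79, while Cox6a1 rose by 0.68. With the mitochondrially encoded genes left out before scaling, 8716 genes were called in place of 8710. Of 79 cytosolic ribosomal protein genes 13 were higher and 13 lower (median 0.05, which flipped sign with other scalings), against 6 and 27 with total counts and 4 and 24 with limma on log2(FPKM + 0.1), and reads of these genes can be shared with their many pseudogenes.

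Markers of vessels and of microglia were mostly higher. For vessels, 21 of 22 endothelial and pericyte markers were higher and 0 lower (median 0.96). Slc2a1, the glucose transporter of the blood-brain barrier, was at 112, 119 and 117 CPM in CON-M and at 262, 292 and 280 CPM in OE-M (log2 change 1.26 ± 0.06 SE, edgeR adjusted p = 1.39e-07). Cldn5, of endothelial tight junctions, rose by 1.26, Ly6c1 by 1.37 and Pdgfrb, of pericytes, by 0.99. For microglia and macrophages, 17 of 21 markers were higher and 0 lower (median 0.93). Csf1r, the receptor on which microglia depend, was at 84.2, 89.8 and 88.2 CPM in CON-M and at 189, 179 and 171 CPM in OE-M (1.04 ± 0.06). C1qb, of complement, rose by 1.05 and P2ry12, of resting microglia, by 0.97, while Lyz2 and Pf4, known from macrophages, had values of 0.04 and -0.25 and did not pass.

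Among glia of the neural lineage, 17 of 18 astrocyte markers were higher and 0 lower (median 0.71). Slc1a3 and Gfap rose by 1.07 and 0.70, and Aldh1l1 had a value of 0.03 and did not pass. Of 12 oligodendrocyte precursor markers 10 were higher and 1 lower (median 0.67). Cspg4 was at 39.8, 45.9 and 45.0 CPM in CON-M and at 110, 116 and 114 CPM in OE-M (1.38 ± 0.07), Pdgfra rose by 1.21, and Sox10 fell by 0.27, a call lost without CON-M replicate 2 (edgeR adjusted p = 0.0518). Of 24 markers of myelinating oligodendrocytes 11 were higher and 4 lower (median 0.24, 8 and 5 with total counts). Mag and Mobp rose by 0.85 and 0.79 while Qdpr and Cnp fell by 0.83 and 0.52. Of 15 markers of meningeal fibroblasts 6 were higher and 1 lower (median 0.31), and 3 were higher without CON-M replicate 3 or with total counts.

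Genes of vessel growth and of the extracellular matrix rose with these markers. Of 17 angiopoietin and VEGF genes 12 were higher and 1 lower (median 0.54). Kdr and Flt1, receptors of VEGF, rose by 1.23 and 0.81, Vegfa by 0.54 and the hypoxia factor Epas1 by 0.98, while Hif1a fell by 0.51. Of 34 collagen chains 26 were higher and 1 lower (median 0.74). Col4a1 and Col4a2, of vascular basement membranes, rose by 1.44 and 1.32, with Col4a1 at 87.7, 79.8 and 84.6 CPM in CON-M and at 230, 238 and 214 CPM in OE-M. Of 25 Notch genes 14 were higher and 5 lower (median 0.44, 10 and 6 with total counts), with 3 lower without CON-M replicate 3. Notch4, of endothelium, was at 10.1, 9.80 and 9.94 CPM in CON-M and at 28.4, 28.5 and 28.5 CPM in OE-M (1.51 ± 0.08), and Notch1 and Notch3 rose by 1.09 and 1.10, whereas the target Hes1 fell by 0.79.

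Markers of neurons went both ways. Of 28 markers of excitatory cortical neurons 15 were lower and 8 higher (median -0.35, 18 and 5 with total counts). Calb1, of upper layers, was at 80.9, 81.3 and 80.7 CPM in CON-M and at 29.3, 30.2 and 33.5 CPM in OE-M (log2 change -1.38 ± 0.07 SE, edgeR adjusted p = 1.63e-07). Etv1 and Bcl11b, transcription factors of deep layers, fell by 0.81 and 0.76, while Camk2a and Lamp5 each rose by 0.55. Of 26 interneuron markers 9 were higher and 10 lower, with a median of 0.09 whose sign flipped with other scalings. The GABA-synthesizing enzymes Gad1 and Gad2 fell by 0.78 and 0.89 and the calcium binders Pvalb and Calb2 by 1.32 and 1.52. The peptides Sst and Npy rose by 0.82 and 0.97, with Sst at 96.0, 78.4 and 89.2 CPM in CON-M and at 154, 166 and 145 CPM in OE-M.

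Without CON-M replicate 3, the library with liver transcripts, 54 protocadherins, 22 glutamate receptor genes, 17 astrocyte, 17 microglial and 19 vascular markers and 24 collagens were higher. The lower genes numbered 39 for the proteasome, 30 for heat-shock chaperones, 28 for immediate early genes and 51 for nuclear respiratory subunits.

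**Figure D4:**
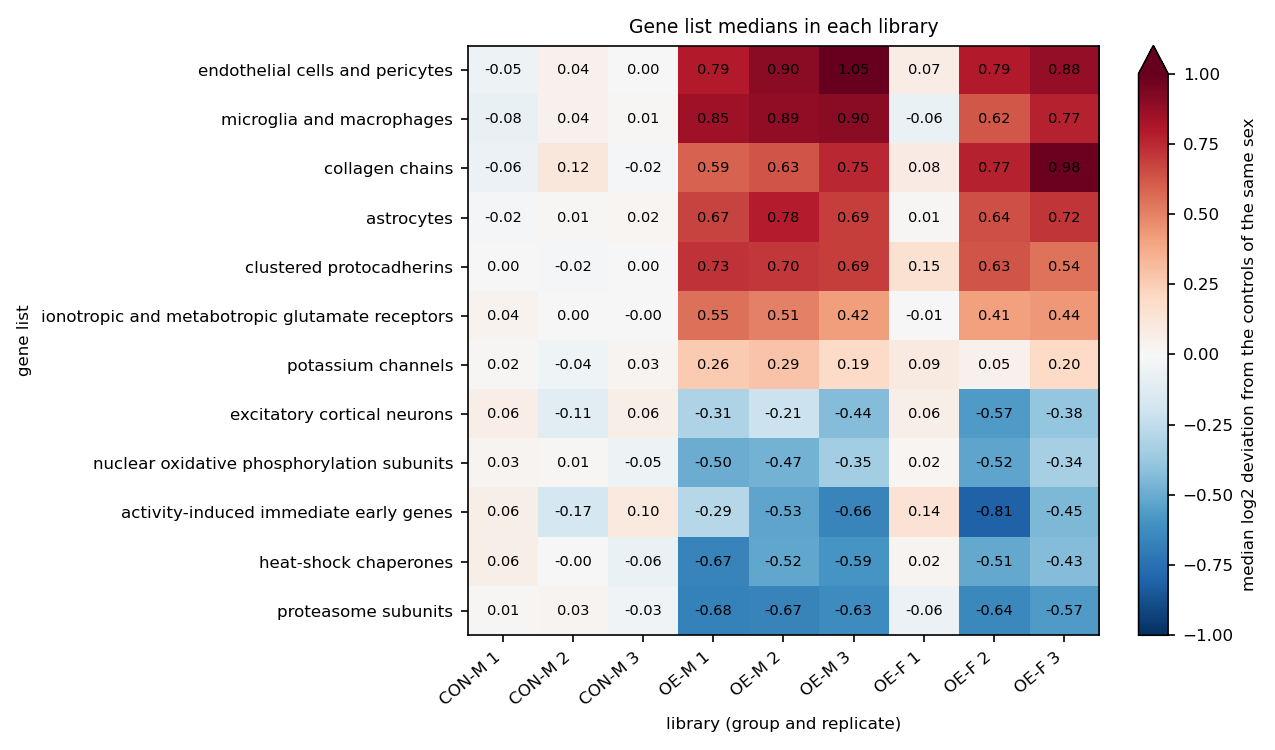
Median log2 deviation of 12 gene lists from the mean of the controls of the same sex, for each male library and each female knock-in library (OE-F). Each list has the same sign in the 3 OE-M libraries, while OE-F replicate 1 stays between -0.06 and 0.154 and the other OE-F libraries have the sign of OE-M, for example 0.64 and 0.72 against 0.67 to 0.78 for astrocytes.

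Lists of genes set by hormones, infection or time of day differed in their shares of calls. Of 21 circadian clock genes 13 were lower and 2 higher (median -0.28), with Bhlhe40 down by 1.01 and Per3 up by 0.40. Of 18 corticosteroid-induced genes 10 were higher and 4 lower (median 0.29). The split was 5 and 4 with total counts and 4 and 5 with limma on log2(FPKM + 0.1), and 5 higher and 4 lower genes kept their call with any single library left out. Map3k6 and Plin4 rose by 1.54 and 1.31 while Errfi1 and Sgk1 fell by 0.94 and 0.46. Of 20 interferon-stimulated genes 4 were higher and 1 lower (median 0.23, 1 and 2 with total counts). These shares, 20.0% and 5.0%, were below the 27.7% and 29.8% of all genes tested. B2m, of MHC class I, rose by 0.94, and the calls of the other members were lost with a single library left out. Without CON-M replicate 3, 1 was higher.

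Markers of neighbouring tissue and blood differed between the groups as well. Of 15 choroid plexus markers 8 were lower and 1 higher (median -0.83), and the medians of the OE-M libraries against the controls were -0.996, -0.228 and -0.930. Ttr was at 249, 294 and 232 CPM in CON-M and at 63.3, 206 and 123 CPM in OE-M, and Tmem72, at 984 to 1417 CPM, was the member that rose. The summed level of the red blood cell genes was 351, 403 and 510 CPM in CON-M and 163, 166 and 216 CPM in OE-M, and all 5 tested members fell (median -1.19), among them the alpha globins Hba-a1 and Hba-a2, copies whose reads may be divided between them. Of 17 striatal markers 5 were lower and 1 higher (median -0.12, 5 and 0 with total counts), with Ppp1r1b down by 1.08. Of 8 markers of olfactory bulb and septum 3 were higher and 2 lower (median 0.18, 2 and 2 with total counts), with 1 each way without CON-M replicate 3. Of 12 markers of thalamus and hippocampus 3 were higher and 3 lower (median -0.16, 1 and 3 with total counts), with Prox1, of dentate granule cells, at 55.2, 76.1 and 70.9 CPM in CON-M and at 32.9, 30.7 and 32.6 CPM in OE-M. Only 5 liver genes passed the minimum level, 1 higher and 1 lower (median -0.98, a sign that flipped with other scalings). Of 8 sex-linked markers 2 were higher and 2 lower (median -0.01, which also flipped; 0 and 4 with total counts). The part of neighbouring tissue and blood in the results above was not tested.

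The share of genes called in each direction changed with transcript length. Genes were divided into 4 classes of equal size by the length of the transcript with the highest FPKM. In the shortest class, up to 1.22 kb, 19.5% of the genes were higher and 26.0% lower in OE-M. In the next class the shares were 22.4% and 34.4%, and in the one after it 30.1% and 31.7%. In the longest class, from 3.98 kb, 38.8% were higher and 27.1% lower. By span of the gene on the chromosome the share higher went from 21.4% in the shortest class to 36.5% in the longest. The part of transcript length in the list results was not tested.

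**Figure D5:**
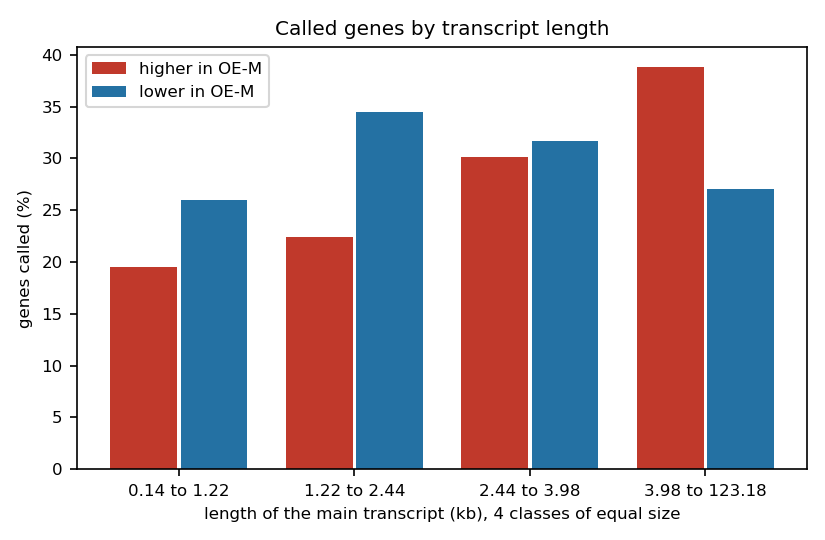
Percentage of tested genes called higher (red) and lower (blue) in OE-M in each of 4 classes of main transcript length in kb. The share higher runs from 19.5% in the shortest class to 38.8% in the longest, and the share lower is greatest, at 34.4%, in the second.

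The male change was then set beside the female one in a fit of all 12 libraries as 4 groups, with sex taken from the labels. Kdm5d, a gene of the Y chromosome, had a log2 change of 0.39 in females in that fit (edgeR adjusted p = 0.0515). The SE of its male minus female change was 0.16, against 0.13 for Kmt2b of chromosome 7. Whether the level of Y-linked genes bears out the female labels was not tested, so the sexes compared here are those of the labels only. In that fit 6829 genes (45.1%) were called in males and 1570 (10.4%) in females, with a median size of the log2 change of 0.390 and 0.268. Of the genes called, 1389 were shared, which is 20.3% of the male and 88.5% of the female calls, and 1388 of these had the same direction. The test of the male minus the female change called 0 of 15153 genes by edgeR (0%), 1095 genes had an unadjusted p below 0.05, the smallest adjusted p was 0.667, and DESeq2 called 1 gene, Kif5a. OE-F replicate 1 decided the female count: without it 7461 genes were called in females and 29 for the difference, of which 27 had the lower value in males. Among the 29, chosen without that library, Dsp, Lct, Prox1, Fibcd1 and C1ql2 had a lower log2 change in males than in females. The differences were -3.39, -3.03, -1.22, -1.77 and -1.59. Of these genes Dsp, Prox1, Fibcd1 and C1ql2 are on the list of markers of thalamus and hippocampus. Kif5a and Fth1, the heavy chain of ferritin, were the 2 with the higher value in males, by 0.50 and 0.64. The clustered protocadherins had a median of 0.49 in females with all libraries, the proteasome subunits -0.39 and the astrocyte markers 0.48, each of the same sign as in males. Not every list kept its sign. Choroid plexus markers had a median of -0.83 in males and 0.70 in females, with -0.86, 1.11 and 1.11 in the OE-F libraries. Markers of thalamus and hippocampus had medians of -0.16 and 0.41.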

How the data were processed

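Ribosome-depleted total RNA of medial frontal cortex was sequenced with a dUTP-stranded kit, per the labels' protocols. The authors deposited 1 table of 119414 transcripts with expected counts and FPKM for each library, per the file headers. The submitters' processing notes list HISAT2 2.0.1, HTSeq 0.6.1 and the build GRCm38, without their roles. The same notes list cutadapt 1.9.1 and bcl2fastq 2.17.1.14. The program behind the expected counts and its use of strand are not given in the sources used here.

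Expected counts were summed by gene identifier and rounded. The 1774 transcripts with no gene identifier, 0.554% to 0.601% of the counts, were left out. Genes with at least 0.5 FPKM in 3 of the 6 libraries were fitted with edgeR 4.0.16 in R 4.3.3 (TMM scaling, quasi-likelihood test, 4 residual degrees of freedom), with Benjamini-Hochberg adjustment over 15153 genes and a threshold of 0.05. Males and females were set side by side in 1 fit of 12 libraries (8 residual degrees of freedom). CPM are TMM-scaled. Code was tested on simulated data. Alternatives were DESeq2 1.42.0, limma 3.58.1 on log2(FPKM + 0.1) and log2(FPKM + 1), other scalings, other filters, the replicate block and each library left out.

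Named genes were Dnmt3l, the 10 largest stable changes each way with a mean of at least 1 CPM, the 6 most abundant genes each way with a log2 change of at least 0.585, and in each of 39 lists up to 4 called members each way with the smallest p. The largest and the most abundant changes had to be called, with no overlap of the groups, and to stay called with each library left out. Other genes were named after their values were seen. Some genes that the rule names are not reported here. The members, the lists and the tests were chosen with earlier results of these data known. RefSeq promoters (250 bases before to 50 after the start, GRCm38.p6) were matched by symbol to 11167 of the 15153 genes (73.7%). That is under 80%, so a comparison of promoter base composition over all genes is void and was not made. Of the listed genes, 33 of 41 heat-shock, 39 of 46 proteasome and 38 of 49 immediate early genes had a promoter. The last (77.6%) is under 80% too, so a comparison within that list is void.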

Additional observations from a re-analysis of the deposited data

Results flagged for a closer look

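Corticosteroid-induced genes, with a median log2 change of 0.29 in males, had a positive median deviation in every OE-M library and a negative one in every OE-F library (0.20, 0.45 and 0.12 against -0.18, -0.24 and -0.02). The same opposite movement of every library was seen for Mt1, a metallothionein, at 0.49 in males and -0.17 in females, and for Rbp4, the retinol carrier, at 0.59 in males and -0.23 in females. The sexes are those of the labels. The difference between them was not tested for the list, and for Mt1 and Rbp4 the edgeR test of the male minus the female change did not pass.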

How the results depend on the processing

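The count of genes called in males was 7719 to 8338 with each library left out in turn, of which 3694 to 3904 were higher and 4025 to 4434 lower. With limma the higher genes numbered 2314 on log2(FPKM + 0.1) and 2338 on log2(FPKM + 1), against 4197, and the cause was not tested. Upper-quartile scaling gave 4742 higher and 4041 lower genes (54.0% higher), and DESeq2 4220 and 4331. The test of the male minus the female change called 1 gene with DESeq2 and from 0 to 29 with 1 library left out, 29 being the count without OE-F replicate 1, and the female count rose to 7461 without that library, an alternative chosen after seeing the data. The replicate block gave 8182 calls. Correlations of the deviations of same-numbered male libraries were 0.0351, -0.1029 and -0.0888, so the numbers were not taken to pair the samples. The log2 change of Dnmt3l was 10.1 with DESeq2 and 4.05 with limma at the larger pseudocount. Of the 253 named-gene results none reversed, and 46 genes lost their call under at least 1 alternative. With 3 libraries a group, an exact test of a single value cannot go below p = 0.1.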

Other observations

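Gene groups outside the lists above were gathered after the values were seen, and their counts are descriptions. All members of the mitochondrial ribosome that passed were lower, 57 of 75 tested genes with 0 higher (median log2 change -0.60). Of 14 tubulin genes 11 were lower and 0 higher (median -0.74), with Tubb3, the neuronal beta tubulin, at -1.08, and their summed level was 3819 to 4040 CPM in CON-M and 2352 to 2434 CPM in OE-M. Of 54 translation initiation genes 37 were lower and 4 higher (median -0.43), and 3 of the 4 higher ones were Eif2ak2, Eif2ak3 and Eif2ak4, kinases that inhibit initiation by phosphorylating eIF2. Of 18 tRNA synthetases 12 were lower and 2 higher (median -0.47, 13 and 0 with total counts).

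The V-type ATPase, the proton pump of lysosomes and synaptic vesicles, had 10 lower and 5 higher genes of 17 tested (median -0.82). The 5 higher ones, among them Atp6v0c at 0.73, encode subunits of the membrane sector V0. The lower ones encode subunits of the cytosolic sector V1, among them Atp6v1b2 at -1.26, except Atp6v0d1 of V0 at -0.99. Of 33 laminin and integrin genes 25 were higher and 1 lower (median 0.71), of 38 ABC transporter genes 24 were higher and 4 lower (median 0.44), and of 28 kinesins 10 were higher and 5 lower (median 0.20, 4 and 5 with limma on log2(FPKM + 0.1)). The 4 lower ABC genes, Abcf1, Abcf2, Abcf3 and Abce1, encode soluble members that act in translation and not in transport.

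The 2 genes that follow lie outside the rule for named genes and were singled out after their values were seen. The predicted gene Gm5641 was at 0 CPM in all 3 CON-M libraries and at 2.40, 4.51 and 5.15 CPM in OE-M. Srp54b, a copy of the signal recognition particle gene, was at 1.31, 20.5 and 36.9 CPM in CON-M and at 1.11, 1.95 and 1.06 CPM in OE-M.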
